A study of Rattus norvegicus with 6 samples.

Results

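The genes described here are 10 genes of osteoclasts and of the RANK, RANKL and OPG axis, measured by RNA-seq in mesenchymal stem cells (MSC) of the rat. They were taken by name from the deposited count table, where each name matched 1 row, 10 of 30498 genes in all. They are the ligand Tnfsf11 (RANKL), its receptor Tnfrsf11a (RANK), the decoy receptor Tnfrsf11b (osteoprotegerin, OPG), the transcription factor Nfatc1, the fusion proteins Dcstamp and Ocstamp, the immune receptor Oscar, the proton pump subunit Atp6v0d2 and the resorption enzymes Ctsk and Acp5. The 6 libraries comprise 3 of rcMSC, whose source is cranial bone marrow, and 3 of rbMSC, whose source is femoral and tibial marrow. All cells were labelled as wild-type rat MSC with no treatment named; strain, age, passage and number of animals were not given in the sources used here. The labels do not tell whether libraries of 1 group stem from separate animals or cultures, so the p-values reflect library-to-library spread that could be technical. The design compares the expression profiles of rcMSC and rbMSC, and the title places this in a study of cranial MSC transplantation after spinal cord injury.

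In bone, RANKL on stromal cells and osteoblasts binds RANK on precursors of the monocyte and macrophage lineage, and the signal, carried through TRAF6, NF-kB and calcium, switches on NFATc1, the master transcription factor of osteoclasts. NFATc1 then induces the genes for cell fusion, acid secretion and digestion of bone matrix. OPG, secreted by stromal cells, traps RANKL and keeps it from RANK, so the ratio of ligand to decoy is the usual reading of how far a stroma favours osteoclast formation. Precursors need CSF1, another stromal product, to survive.

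Total counts per library ranged from 21340290 to 26928079. The library rcMSC replicate 3 stood apart from the other rcMSC libraries. Over genes with at least 20 counts in a pair, chi-square per degree of freedom was 42.8 and 42.0 between it and rcMSC replicates 1 and 2, against 2.69 to 3.16 for all other pairs within a group. Values without this library are given beside the members and beside the other results that it moved most. The 8 stromal markers summed to 20715 to 20893 CPM (the count relative to the TMM-scaled library total) in rbMSC and 24503 to 30639 CPM in rcMSC, with 82.3% of it from the collagen gene Col1a2. Of these 8, 3 were higher and 5 lower in rcMSC (edgeR, adjusted p under 0.05), with a median log2 fold change of -0.54. Of all genes tested, 22.6% were higher and 23.2% lower. Among the lower stromal markers was Thy1, a surface protein of MSC, at 1087 to 1114 CPM in rbMSC and 498 to 510 CPM in rcMSC. Of the osteoclast markers, Calcr, the calcitonin receptor, had 0 counts in all 6 libraries, which allows up to 0.0431 CPM over the rbMSC group and 0.0376 CPM over the rcMSC group (a floor of 3 counts, counting error only). Mmp9, a gelatinase that mature osteoclasts express strongly, had 0.433 to 0.475 CPM in rbMSC and 0.401 to 1.48 CPM in rcMSC. Not all osteoclast markers were this low: the integrin gene Itgb3 was at 19.8 to 20.9 CPM in rbMSC and 4.7 to 6.8 CPM in rcMSC. The other markers of the list are among the 10 genes, from Ctsk at 59.2 to 105 CPM to Ocstamp at 0 to 0.12 CPM over the libraries.

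Of the 10 genes, Tnfrsf11b and Ctsk were higher in rcMSC, by 2.73-fold and 1.55-fold, and Tnfrsf11a was lower, by 4.10-fold. Tnfsf11, Nfatc1, Oscar, Atp6v0d2 and Acp5 did not pass an adjusted p of 0.05 in the edgeR quasi-likelihood test over all genes, and Dcstamp and Ocstamp had too few counts to be tested. Thus 3 of the 8 tested genes passed (5 without rcMSC replicate 3, with Oscar lower and Atp6v0d2 higher in rcMSC), or 37.5%, where 45.8% of all 14836 genes tested passed (22.6% higher and 23.2% lower in rcMSC). Without rcMSC replicate 3, 9070 of the 15096 genes then tested passed. The median log2 fold change of the 8 genes was 0.07 with all libraries, against 0.02 over all genes tested. In 5 of the 8 genes (62.5%) the libraries of the groups did not overlap, against 57.1% of all genes tested. These shares are near the background, so the results concern single genes and not the set.

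**Figure D1:**
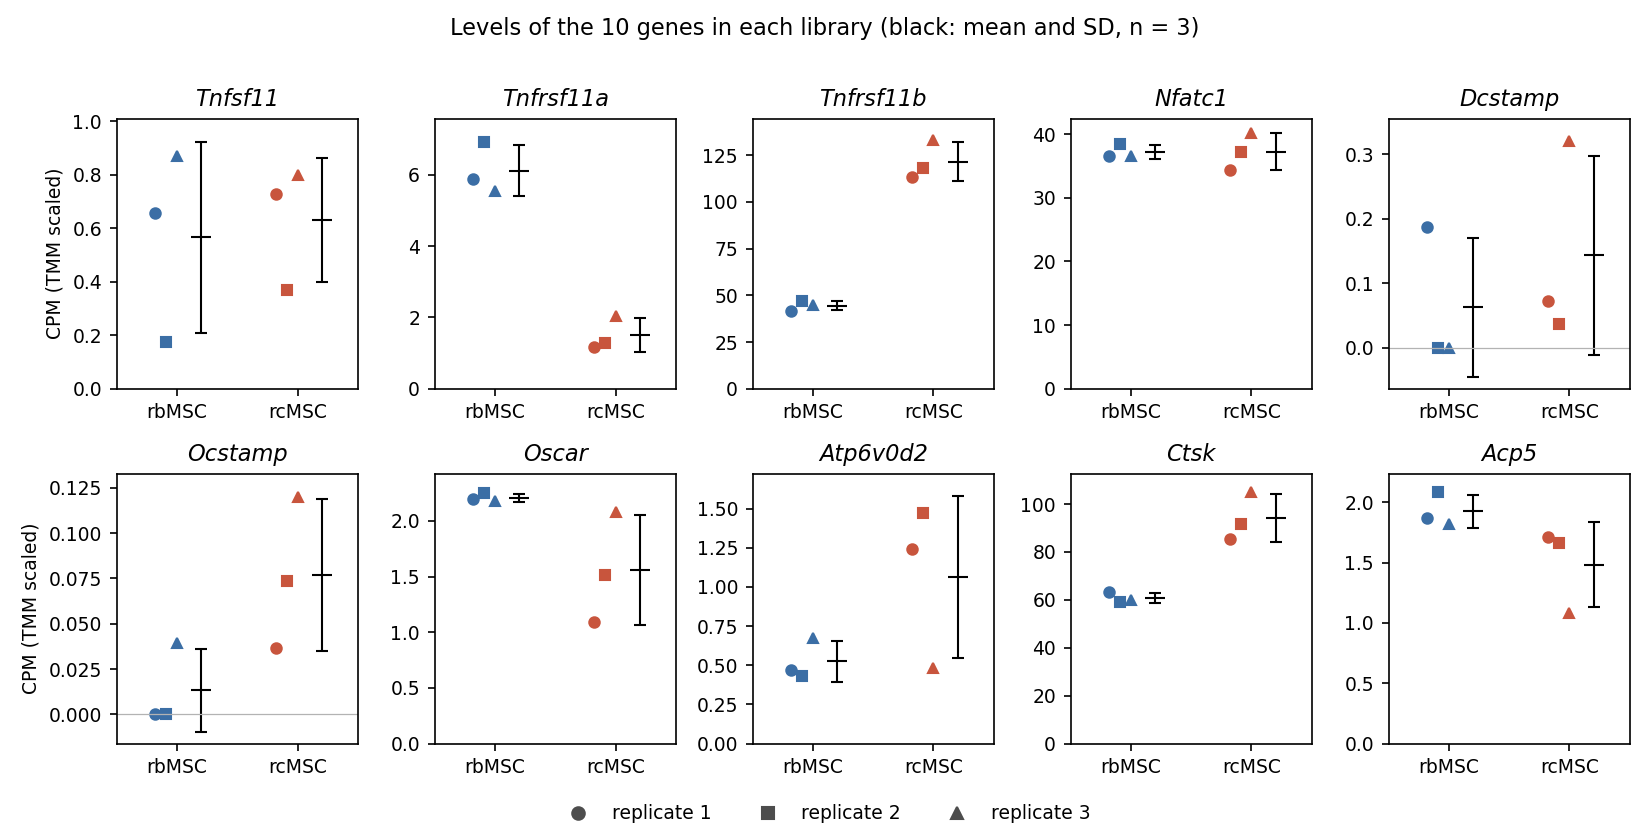
TMM-scaled CPM of each of the 10 genes (y axis, linear, with its own scale for each gene) in the 3 rbMSC (blue) and 3 rcMSC (red) libraries, with the mean and SD of each group in black. The groups separate widely for Tnfrsf11a (5.54 to 6.92 against 1.17 to 2.04 CPM) and Tnfrsf11b (41.7 to 46.8 against 113 to 133 CPM), and the libraries of Tnfsf11 and Nfatc1 overlap.

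**Figure D2:**
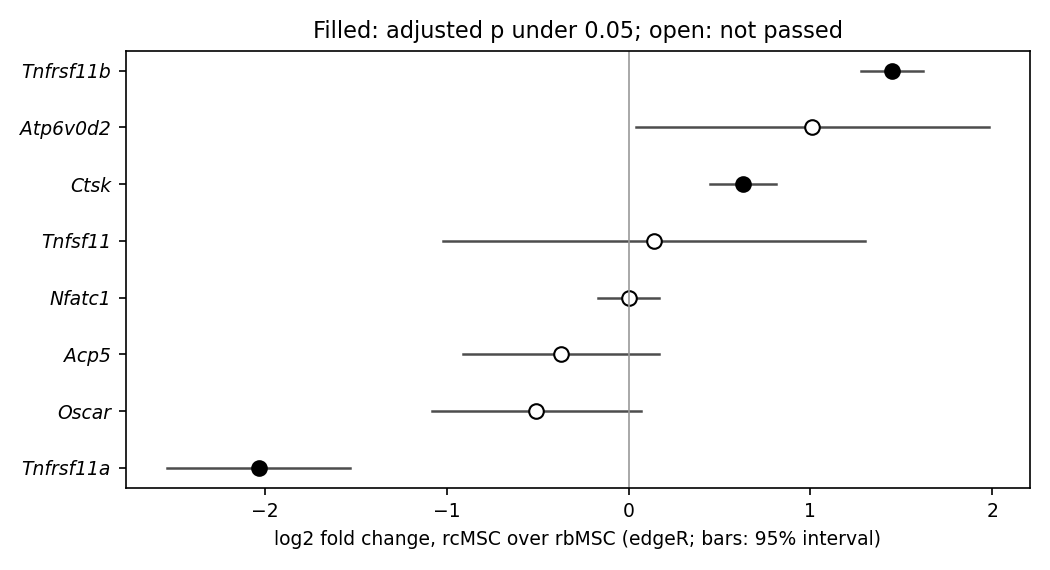
Log2 fold change of rcMSC over rbMSC (x axis) for the 8 tested genes, with 95% intervals from the edgeR fit; filled points passed an adjusted p of 0.05. The interval is narrow for Nfatc1 (-0.17 to 0.17) and wide for Tnfsf11 (-1.02 to 1.30).

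The ligand Tnfsf11 (ENSRNOG00000071047, chromosome 15, 53673877 to 53705445 in mRatBN7.2, minus strand) was scarce in both groups. It had 14, 4 and 22 counts across rbMSC replicates 1 to 3, and 20, 10 and 20 counts across rcMSC replicates 1 to 3. Scaled, this was 0.655, 0.173 and 0.871 CPM in rbMSC and 0.728, 0.368 and 0.8 CPM in rcMSC. The groups overlapped, and the lowest library of each group was replicate 2. The log2 fold change was 0.14 ± 0.52 (SE; adjusted p = 0.845 in edgeR), with a 95% interval of -1.02 to 1.30, which holds a change of 2-fold in either direction. Without 1 library the value lay between -0.28 and 0.62, with no call.

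The decoy receptor Tnfrsf11b (ENSRNOG00000008336, chromosome 7, 85566520 to 85594538, minus strand) was abundant. It stood at 41.7, 46.8 and 45.0 CPM across rbMSC replicates 1 to 3, and at 113, 118 and 133 CPM across rcMSC replicates 1 to 3. Every rcMSC library lay above every rbMSC library, with rcMSC replicate 3 the highest. The means were 121 ± 10.4 CPM in rcMSC and 44.5 ± 2.58 CPM in rbMSC (SD, n = 3 each), and the log2 fold change was 1.45 ± 0.08 (SE; adjusted p = 2.22e-07 in edgeR). Without rcMSC replicate 3 the log2 fold change was 1.38.

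The ratio of ligand to decoy was taken within each library from counts per kb of gene length, which needs no scaling between libraries. It was 0.0205, 0.00482 and 0.0253 in rbMSC replicates 1 to 3. In rcMSC replicates 1 to 3 it was 0.00838, 0.00408 and 0.00783. Tnfrsf11b thus exceeded Tnfsf11 by 39.6 to 245 times in every library. The rbMSC libraries at 0.0205 and 0.0253 lay above all rcMSC libraries, while rbMSC replicate 2, with 4 Tnfsf11 counts, lay among them. The mean log2 ratio was -6.20 ± 1.30 in rbMSC and -7.28 ± 0.57 in rcMSC (SD, n = 3 each), 2.11-fold lower in rcMSC. This difference of -1.07 was not larger than the spread between libraries (exact permutation test, two-sided, p = 0.3, where 3 against 3 libraries cannot go below 0.1). It was -1.82 without rbMSC replicate 2 and -0.63 without rbMSC replicate 3. From the summed counts of each group, 40 of Tnfsf11 and 3107 of Tnfrsf11b in rbMSC and 50 and 9638 in rcMSC, the ratio was 0.0168 (exact 95% interval 0.0120 to 0.0229) in rbMSC and 0.00676 (0.00501 to 0.00892) in rcMSC. These intervals cover counting error only and leave out the spread between libraries.

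**Figure D3:**
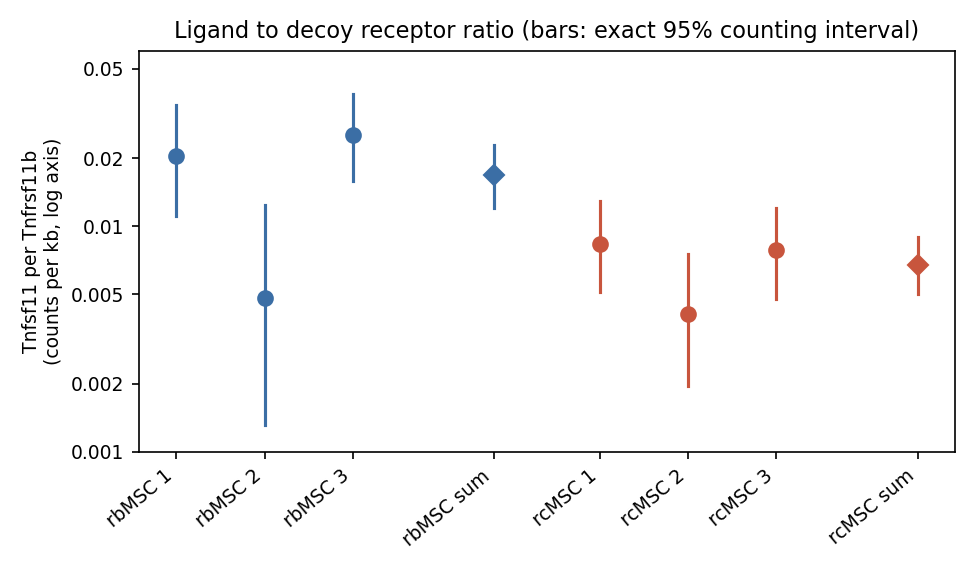
Ratio of Tnfsf11 to Tnfrsf11b counts per kb (y axis, log scale) in each library (circles) and in the summed counts of each group (diamonds), with exact 95% counting intervals. The value of rbMSC replicate 2, 0.00482, lies among the rcMSC libraries and the other rbMSC libraries lie above them.

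The receptor Tnfrsf11a (ENSRNOG00000015615, chromosome 13, 21928408 to 21986695, plus strand) had the largest change of the 8 tested genes. It had 126, 160 and 140 counts across rbMSC replicates 1 to 3, and 32, 35 and 51 across rcMSC replicates 1 to 3. In CPM these were 5.89, 6.92 and 5.54 in rbMSC and 1.17, 1.29 and 2.04 in rcMSC. All rcMSC libraries were below all rbMSC libraries, and rcMSC replicate 3 was the highest of its group. The means were 1.5 ± 0.473 CPM in rcMSC and 6.12 ± 0.716 CPM in rbMSC (SD, n = 3 each), and the log2 fold change was -2.03 ± 0.23 (SE; adjusted p = 4.96e-05 in edgeR), or -2.31 without rcMSC replicate 3.

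RANK is carried by cells of the macrophage lineage. Of 18 macrophage markers tested, 12 were lower and 0 higher in rcMSC, where 23.2% of all genes tested were lower and 22.6% higher, and the median log2 fold change was -0.59 (edgeR, adjusted p under 0.05; 19 of the 20 markers were in the table). Summed over the list, the level was 1203 to 1210 CPM in the rbMSC libraries and 750 to 772 CPM in the rcMSC libraries, with 32.5% of it from the lysozyme gene Lyz2, and no marker in the table was at 0 in all libraries. Csf1r, the CSF1 receptor, was at 156, 157 and 157 CPM in rbMSC and at 41.4, 43.6 and 77.3 CPM across rcMSC replicates 1 to 3. Ptprc (CD45), the pan-leukocyte marker, was at 137, 139 and 130 CPM in rbMSC and at 42.5, 38.1 and 56.3 CPM in rcMSC. Without rcMSC replicate 3 the log2 fold change of Csf1r moved from -1.53 to -1.88, and that of Ptprc from -1.57 to -1.75. Replicate 3 was the highest rcMSC library for Csf1r and Ptprc but the lowest for Spi1 (11.6, 11 and 9.68 CPM) and Lyz2 (287, 280 and 231 CPM). Per kb, Tnfrsf11a stood at 0.0595 to 0.0744 of Csf1r in the rbMSC libraries and at 0.0445 to 0.0498 in the rcMSC libraries. Relative to Ptprc it stood at 0.22 to 0.256 and at 0.141 to 0.187, and relative to Spi1 at 0.249 to 0.292 and at 0.0761 to 0.16. Against each of these 3 markers the ratio was lower in every rcMSC library than in every rbMSC library, with the widest separation against Spi1. These ratios were not tested and use the same counts as the fold changes. Of these 4 genes Tnfrsf11a fell most (log2 fold change -2.03) and Spi1 least (-0.68). In bulk samples, fewer cells of a type and less RNA per cell cannot be told apart, and the part of the macrophage-lineage markers in the Tnfrsf11a result was not tested. Markers of lymphoid cells, neutrophils and red cells (10 in the table) all had too few counts for the test, and their summed level was at most 0.303 CPM in any library.

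Nfatc1 (ENSRNOG00000017146, chromosome 18, 74046904 to 74156028, minus strand), which is also expressed outside osteoclasts, was at one level in both groups within the precision of the test. Its values were 36.5, 38.5 and 36.6 CPM across rbMSC replicates 1 to 3, and 34.3, 37.2 and 40.1 CPM across rcMSC replicates 1 to 3. The groups overlapped, and the rcMSC libraries spanned the whole range of the rbMSC ones. The log2 fold change was 0.00 ± 0.08 (SE; adjusted p = 0.992 in edgeR) with a 95% interval of -0.17 to 0.17.

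The fusion genes were close to the detection limit. Dcstamp (ENSRNOG00000004704, chromosome 7, 70807581 to 70822078, plus strand), a membrane protein needed for precursors to fuse into multinucleated osteoclasts, had 4, 0 and 0 counts across rbMSC replicates 1 to 3, and 2, 1 and 8 counts across rcMSC replicates 1 to 3. Its partner Ocstamp (ENSRNOG00000019110, chromosome 3, 154132328 to 154136991, minus strand) had 0, 0 and 1 counts in rbMSC and 1, 2 and 3 in rcMSC. The libraries overlapped for both genes. From the summed counts, the ratio of rcMSC to rbMSC was 2.39 for Dcstamp (exact 95% interval 0.709 to 10.3) and 5.22 for Ocstamp (0.634 to 240), so no difference was detectable at this depth.

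Oscar (ENSRNOG00000055716, chromosome 1, 65607410 to 65613758, plus strand) encodes a collagen-binding receptor that costimulates osteoclast precursors through the adaptor Fcer1g. It was at 2.20, 2.25 and 2.18 CPM across rbMSC replicates 1 to 3, and at 1.09, 1.51 and 2.08 CPM across rcMSC replicates 1 to 3. All rcMSC libraries were lower, but replicate 3 was close to the rbMSC libraries. The log2 fold change of -0.51 ± 0.26 (SE; adjusted p = 0.133 in edgeR) did not pass. Without rcMSC replicate 3 it was -0.76 and passed (adjusted p = 0.0137), and over all alternatives the adjusted p lay between 0.0137 and 0.373. The exons of Oscar share 231 bases with those of Tfpt on the same strand, so reads there cannot be assigned to either gene with certainty.

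Atp6v0d2 (ENSRNOG00000006926, chromosome 5, 33336264 to 33385354, minus strand) is the subunit of the vacuolar proton pump that osteoclasts use in place of the ubiquitous Atp6v0d1. It had 10, 10 and 17 counts across rbMSC replicates 1 to 3, and 34, 40 and 12 across rcMSC replicates 1 to 3. In CPM these were 0.468, 0.433 and 0.673 in rbMSC and 1.24, 1.47 and 0.480 in rcMSC. Replicates 1 and 2 of rcMSC were above all rbMSC libraries and replicate 3 lay among them. The log2 fold change of 1.01 ± 0.44 (SE; adjusted p = 0.0824 in edgeR) did not pass, although its 95% interval of 0.04 to 1.98, which is not adjusted for the number of genes, lay above 0. It was 1.35 and passed without rcMSC replicate 3 (adjusted p = 0.00202), and the adjusted p lay between 0.00202 and 0.27 over all alternatives.

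Ctsk (ENSRNOG00000021155, chromosome 2, 183058569 to 183069550, plus strand) encodes cathepsin K, the main collagen-degrading protease of osteoclasts, which is also made by fibroblasts and periosteal stem cells. It was at 63.3, 59.2 and 59.8 CPM across rbMSC replicates 1 to 3, and at 85.6, 91.6 and 105 CPM across rcMSC replicates 1 to 3. All rcMSC libraries were above all rbMSC libraries, with replicate 3 the highest. The means were 94.1 ± 9.98 CPM in rcMSC and 60.8 ± 2.17 CPM in rbMSC (SD, n = 3 each), and the log2 fold change was 0.63 ± 0.08 (SE; adjusted p = 0.000118 in edgeR), or 0.54 without rcMSC replicate 3. Per kb, Ctsk stood at 4.16 to 4.51 times the macrophage marker Ptprc in rbMSC and at 18.3 to 23.5 times Ptprc in rcMSC. Ptprc fell by 1.57 on the log2 scale, more than the median of the macrophage markers (-0.59). Which cells made Ctsk was not tested.

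Acp5 (ENSRNOG00000046261, chromosome 8, 20663985 to 20667929, minus strand) encodes tartrate-resistant acid phosphatase, the histochemical marker of osteoclasts. It was at 1.87, 2.08 and 1.82 CPM across rbMSC replicates 1 to 3, and at 1.71, 1.66 and 1.08 CPM across rcMSC replicates 1 to 3. The rcMSC libraries were all lower, replicates 1 and 2 by little. The log2 fold change of -0.37 ± 0.24 (SE; adjusted p = 0.242 in edgeR) did not pass, with a 95% interval of -0.91 to 0.17, and was -0.19 without rcMSC replicate 3. Within a library, Ctsk stood at 35.5 to 42.0 times Acp5 per kb in rbMSC and at 62.2, 68.8 and 121 times across rcMSC replicates 1 to 3. Acp5 had 40 to 48 counts per library in rbMSC and 47, 45 and 27 counts across rcMSC replicates 1 to 3.

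Promoter sequences are shown for Ctsk, which changed, and for Acp5 and Tnfsf11, which did not pass, because Ctsk and Acp5 are textbook targets of NFATc1 and its partners while Tnfsf11 is the stromal ligand. They come from RefSeq in the build GRCr8, which is not the build of the counts, and cover the 250 bases before the annotated start, 5′ to 3′ on the gene's strand. Of the 10 genes, 5 matched the promoter table (Ctsk, Acp5, Tnfsf11, Oscar and Ocstamp), with 6 windows in all because Acp5 has 2 annotated starts. Capitals mark matches, on either strand, to any of the motifs named after the sequences.
Ctsk, chr2:185747298-185747547, plus strand: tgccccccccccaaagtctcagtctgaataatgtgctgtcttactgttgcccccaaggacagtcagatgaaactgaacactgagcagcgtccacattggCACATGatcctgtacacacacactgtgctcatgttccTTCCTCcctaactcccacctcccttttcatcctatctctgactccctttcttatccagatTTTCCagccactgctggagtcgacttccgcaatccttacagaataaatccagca
Acp5, chr8:28943930-28944179, minus strand: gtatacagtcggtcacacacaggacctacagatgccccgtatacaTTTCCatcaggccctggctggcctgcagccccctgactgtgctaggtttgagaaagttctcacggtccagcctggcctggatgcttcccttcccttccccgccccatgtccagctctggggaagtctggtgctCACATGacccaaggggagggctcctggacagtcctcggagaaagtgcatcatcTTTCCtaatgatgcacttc
Tnfsf11, chr15:60114480-60114729, minus strand: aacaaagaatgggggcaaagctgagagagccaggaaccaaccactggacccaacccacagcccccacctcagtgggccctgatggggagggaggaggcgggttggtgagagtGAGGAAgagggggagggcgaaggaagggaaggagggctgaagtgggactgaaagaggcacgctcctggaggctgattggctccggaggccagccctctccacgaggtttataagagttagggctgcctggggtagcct

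The motifs searched were the NFAT core GGAAA, the AP-1 motif TGANTCA, the PU.1 motif GAGGAA, the E-boxes CATGTG and CACGTG bound by MITF, and the RUNX motif TGTGGT, each on both strands; GAGGAA followed by A also holds GGAAA. The Ctsk window held 1 NFAT core, 1 PU.1 motif and 1 CATGTG, whose leftmost bases lie 54, 114 and 151 bases before the start. The Acp5 window shown held 2 NFAT cores, 205 and 19 bases before the start, and 1 CATGTG at 72 bases, and the window of its other start held none of the 6 motifs. The Tnfsf11 window held 1 PU.1 motif, 138 bases before the start. Of 33469 RefSeq windows of the same length, 56.9% held GGAAA, 23.3% GAGGAA, 12.1% CATGTG, 14.5% TGTGGT, 6.34% TGANTCA and 5.59% CACGTG. These matches describe letters in a window and not binding.

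Compared per kb of gene length, Ctsk had the highest level of the 10 genes in both groups, at 42.4 ± 1.51 CPM per kb in rbMSC and 65.7 ± 6.97 in rcMSC, above 93.1% and 95.6% of the genes tested. Tnfrsf11b was next, at 14.6 ± 0.843 and 39.7 ± 3.41 CPM per kb, followed by Nfatc1 at 8.14 ± 0.25 and 8.14 ± 0.626. In rbMSC Tnfrsf11a followed at 2.25 ± 0.263 CPM per kb, ahead of Acp5 at 1.08 ± 0.0758, with no overlap between neighbours down to this point. In rcMSC Acp5 (0.832 ± 0.196), Atp6v0d2 (0.819 ± 0.400) and Tnfrsf11a (0.551 ± 0.174) were neighbours whose libraries overlapped from each to the next. Oscar and Tnfsf11 overlapped in both groups, at 0.370 ± 0.00615 and 0.242 ± 0.153 CPM per kb in rbMSC and 0.261 ± 0.0830 and 0.270 ± 0.0987 in rcMSC. Dcstamp and Ocstamp were last, and overlapped, in both.

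**Figure D4:**
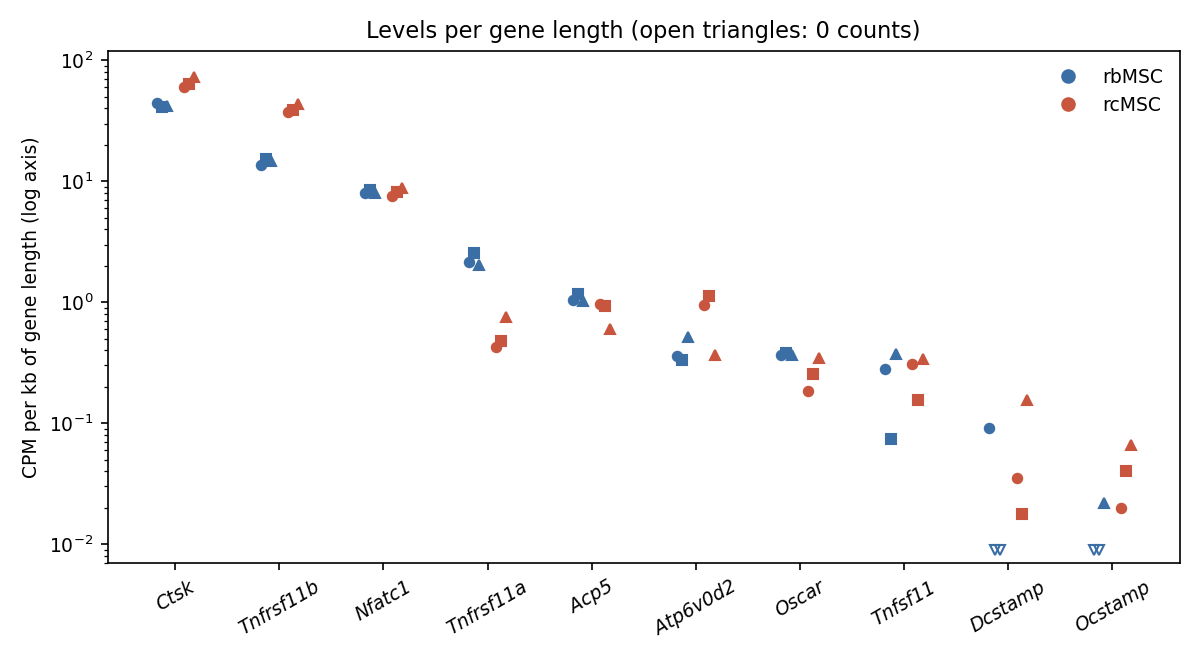
CPM per kb of gene length (y axis, log scale) of the 10 genes in each library, blue for rbMSC and red for rcMSC, ordered by the rbMSC mean; circles, squares and filled triangles are replicates 1 to 3, and open triangles at the lower edge are libraries with 0 counts. Ctsk, Tnfrsf11b and Nfatc1 lie above the other 7 genes in both groups. Tnfrsf11a lies above Acp5 in every rbMSC library but, within rcMSC, only in replicate 3.

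Of 34 listed genes that carry the RANK signal, 31 were in the table and 30 were tested, of which 11 were lower and 2 higher. Together this was 43.3%, near the 45.8% of all genes tested (23.2% lower and 22.6% higher), and the median log2 fold change was -0.07. The kinase Tec, the AP-1 factor Fos and the phospholipase Plcg2 fell most, with values of -1.57, -1.40 and -1.25 on the log2 scale (adjusted p in edgeR 9.28e-07, 3.07e-08 and 1.44e-05). The 2 that rose, named here after their values were seen, were the NF-kB subunits Nfkb1 (0.51) and Relb (0.41). The adaptor Traf6, which binds RANK itself, was at -0.10 and did not pass (adjusted p in edgeR 0.421), nor did the costimulatory adaptors Tyrobp (-0.29) and Fcer1g (0.08). Without rcMSC replicate 3, 12 were lower and 7 higher. Calls over all genes rose too in that setting, to 4558 lower and 4512 higher of 15096 tested.

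The CSF1 axis and lineage factors of osteoclasts passed in 11 of 15 tested genes (73.3%; 16 of 17 in the table), against 45.8% of all genes tested, with 8 lower and 3 higher and a median of -0.64. Prdm1, Nfatc2 and Irf8 fell most, with log2 values of -2.13, -1.96 and -1.87 (adjusted p in edgeR 1.4e-06, 1.54e-05 and 4.44e-07). Irf8 is a repressor of osteoclast formation that macrophages express, Prdm1 (Blimp1) represses such repressors, and Nfatc2 is a relative of Nfatc1. Spi1 (PU.1), the myeloid master factor, fell from 17.3 ± 0.620 to 10.8 ± 0.997 CPM (SD, n = 3 each; log2 fold change -0.68, edgeR adjusted p = 0.00037). The ligand Csf1 was at 389, 389 and 381 CPM in rbMSC and at 307, 296 and 423 CPM in rcMSC, and did not pass (log2 fold change -0.18, edgeR adjusted p = 0.273). Csf1r and Spi1 also stand in the macrophage list.

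Resorption and fusion genes outside the 10 passed in 12 of 18 tested (66.7%; 19 of 19 in the table), 5 higher and 7 lower, against 45.8% of all genes tested, with a median of -0.06. Itgb3, the integrin subunit that attaches osteoclasts to bone, fell from 20.2 ± 0.615 to 5.55 ± 1.10 CPM (SD, n = 3 each; log2 fold change -1.87, edgeR adjusted p = 2.16e-06). The creatine kinase Ckb fell by 1.01 on the log2 scale and the sodium-proton exchanger Slc9b2 rose by 1.07 (adjusted p in edgeR 3.4e-06 and 0.00205).

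Stromal regulators of RANKL and OPG passed in 22 of 33 tested (66.7%; 36 of 38 in the table), 10 higher and 12 lower, against 45.8% of all genes tested, with a median of 0.02. Wnt16, which in bone induces OPG, was at 2.11, 1.56 and 1.94 CPM in rbMSC and at 11.6, 11.1 and 4.36 CPM across rcMSC replicates 1 to 3. Its log2 fold change was 2.27 ± 0.38 (SE; adjusted p = 0.00176 in edgeR), or 2.60 without rcMSC replicate 3. Sp7 (osterix), the osteoblast factor, fell by 2.19 (adjusted p in edgeR 0.0161), with 62, 58 and 67 counts in rbMSC and 3, 9 and 34 in rcMSC, or -3.58 without rcMSC replicate 3. It did not pass without rcMSC replicate 2 (log2 fold change -1.90, adjusted p = 0.0537). The cytokine Osm, made by macrophages and able to raise RANKL, fell by 1.80 (adjusted p in edgeR 0.000514). The receptor genes Osmr and Il6st of the same list went the other way. They rose by 0.56 and 1.17 (adjusted p in edgeR 3.85e-05 and 5.89e-07). Runx2, another osteoblast factor of the stromal list, rose by 0.71 (adjusted p in edgeR 5.95e-05). Of the 10 osteoblast markers, which include Sp7 and Runx2, Bglap had no counts in any library and 9 were tested. Of these 9, 3 were higher and 5 lower in rcMSC. Together this was 88.9%, against 45.8% of all genes tested, and the median log2 fold change was -1.45. Their summed level was nevertheless higher in rcMSC, at 31902 to 32657 CPM in rbMSC and 49787 to 58571 CPM in rcMSC, with 69.4% of it from Col1a1.

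Of 19 lysosomal proteases and hydrolases tested (19 of 21 in the table), 10 were higher and 4 lower, together 73.7% against 45.8% of all genes tested, with a median of 0.21. The cathepsins Ctsh and Ctsl rose by 0.83 and 0.80 (adjusted p in edgeR 8.63e-06 and 2.11e-05), while Ctss, the cathepsin of antigen-presenting cells, fell by 1.03 (adjusted p in edgeR 1.64e-06). Subunits of the proton pump other than Atp6v0d2 passed in 8 of 16 tested (50%; 17 of 22 in the table), 5 higher and 3 lower, against 45.8% of all genes tested, with a median of 0.12. Atp6v1c2 fell by 0.82, and Atp6v1d and Atp6v1g1 rose by 0.77 and 0.63 (adjusted p in edgeR 0.00557, 0.00689 and 0.00103). Without 1 library, 4 to 12 of these subunits passed: 5 without rbMSC replicate 2, 5 without rbMSC replicate 3, 4 without rcMSC replicate 2 and 12 without rcMSC replicate 3. Over all genes, the calls in the same order were 5404, 5503, 5584 and 9070, against 6796 with all 6 libraries. Atp6v0d1, the ubiquitous counterpart of Atp6v0d2, rose by 0.27.

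**Figure D5:**
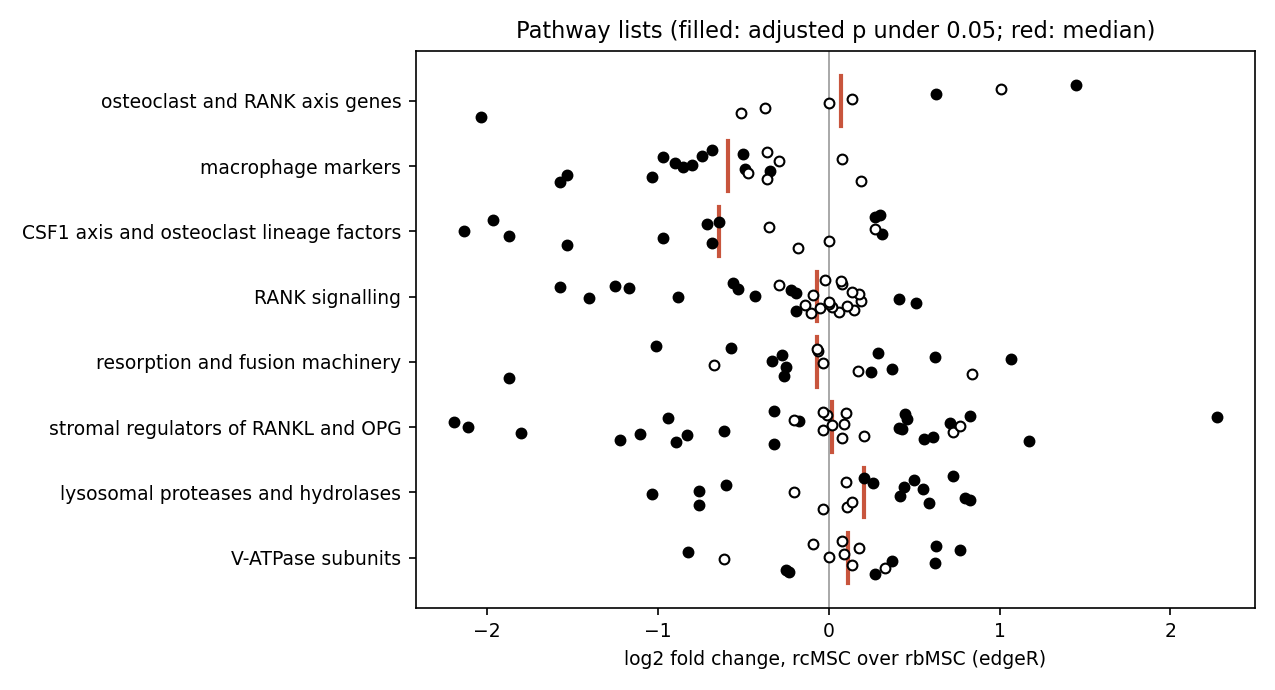
Log2 fold change of rcMSC over rbMSC (x axis) for each tested gene of the 10 genes and of the 7 lists; filled points passed an adjusted p of 0.05 in edgeR and the red line is the median of the list. The macrophage markers (median -0.59) and the CSF1 axis and lineage factors (-0.64) lie mostly left of 0, and the other lists have medians between -0.07 and 0.21.

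The genes with the nearest profiles were sought for the 3 of the 10 genes with the highest CPM, among 11016 other genes, by the root mean square difference of centred log2 CPM over the 6 libraries. For Tnfrsf11b they were Rbm20, Igfbp4 and Gprc5b, with differences of 0.067, 0.073 and 0.078 on the log2 scale. For Ctsk they were Eprs, Rapgef1 and Olfml3 (0.028, 0.037 and 0.039), and for Nfatc1 Evi5l, Loxl1 and Virma (0.016, 0.020 and 0.026). The 6 libraries form 2 groups, so for Tnfrsf11b and Ctsk this likeness is mostly that of the group difference.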

How the data were processed

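RNA sequencing (paired reads of 150 nt) was analysed from 3 rcMSC and 3 rbMSC libraries, grouped by their titles. The authors used Trim Galore 0.6.7 and Trimmomatic 0.39 for trimming, STAR 2.7.9a for mapping to mRatBN7.2 and featureCounts 2.0.1 for counting, per the labels' protocols. The submitters' processing notes also list DESeq2 1.20.0. The authors deposited raw counts for each gene, without normalization. The strand setting, the treatment of reads with several matches and the release of the annotation were not given in the sources used here, so reads shared with an overlapping or near-identical gene cannot be told apart. Gene length is the deposited Length column.

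Groups were compared with edgeR 4.0.16 in R 4.3.3 by its quasi-likelihood test. Libraries were scaled by TMM, genes filtered by filterByExpr, dispersions estimated robustly, and p-values of the 14836 remaining genes adjusted by Benjamini-Hochberg with a threshold of 0.05. SE is the log2 fold change over the square root of F. The Tnfsf11 to Tnfrsf11b ratio was compared by exact permutation (scipy 1.17.1), and the other within-library ratios were described without a test. The script was tested on simulated counts. Alternatives were other scalings, filters and dispersions, DESeq2 1.42.0, limma 3.58.1 (voom with quality weights), blocking on the replicate number, and leaving out each library. All within-group pairs of libraries differed by more than counting noise.

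The 10 genes and the lists were chosen with earlier results of these data known. All 10 genes are named. Of each pathway list the rule named the 3 genes past the threshold that changed most, given an average log2 CPM of 0 or more, and of the markers Ptprc, Csf1r, Spi1, Sp7 and Thy1. Calcr, Mmp9, Csf1, Traf6, Tyrobp, Fcer1g, Lyz2, Atp6v0d1, Nfkb1, Relb, Osmr, Il6st, Runx2, Bglap, Col1a1 and Col1a2 were named after their values were seen.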

Additional observations from a re-analysis of the deposited data

How the results depend on the processing

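The calls of Tnfrsf11b, Ctsk and Tnfrsf11a were kept, in direction and side of the threshold, under every alternative run: log2 fold changes lay between 1.38 and 1.5, 0.54 and 0.70, and -2.31 and -1.88 without 1 library. The number of the 10 genes past the threshold was 3, or 3 to 5 without 1 library, with 5 without rcMSC replicate 3 and 5 with limma voom, where Oscar (-0.73, adjusted p = 0.014) and Atp6v0d2 (1.22, adjusted p = 0.00539) passed too; without rcMSC replicate 3 their values were -0.76 and 1.35. Calls over all genes numbered 6796, or 5336 to 9070 without 1 library. Without 1 library, 9 to 19 RANK signalling genes, 9 to 14 CSF1 axis and lineage factors, 10 to 13 resorption genes, 19 to 24 stromal regulators, 11 to 17 lysosomal genes, 4 to 12 proton pump subunits and 12 to 15 macrophage markers passed; the cause was not tested. The log2 difference of the Tnfsf11 to Tnfrsf11b ratio lay between -1.82 and -0.63 without 1 library, and was -1.31 from summed counts. Same-numbered libraries of the groups did not deviate together (correlations of -0.0275, 0.018 and -0.0518). No pairing by number was thus seen, but 3 libraries per group are too few to exclude one. With the replicate number as a block, 6297 genes and 3 of the 10 passed. The ratio differed by -1.07 in the same direction in all 3 pairs (p = 0.25, exact sign-flip permutation, two-sided, the smallest that 3 pairs can give). Low counts limit Tnfsf11, Atp6v0d2, Dcstamp and Ocstamp.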

Other observations

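Il34, the other ligand of the CSF1 receptor, had too few counts to pass the low-count filter. It had 3, 4 and 6 counts across rbMSC replicates 1 to 3, and 42, 41 and 10 across rcMSC replicates 1 to 3, a ratio of summed counts of 6.23 (exact 95% interval 3.47 to 12.1, counting error only). Every rcMSC library was above every rbMSC library, and rcMSC replicate 3 was the lowest of its group, as it was for Wnt16 (4.36 CPM against 11.6 and 11.1) and Atp6v0d2 (0.480 CPM against 1.24 and 1.47). For Csf1 (423 CPM against 307 and 296) and Mmp9 (1.48 CPM against 0.401 and 0.626) it was the highest. These genes were chosen after their values were seen.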
